A study of Mus musculus with 16 samples.

Results

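The 10 genes described here encode ion channels, a calcium pump, a sodium-calcium exchanger and a phosphodiesterase of the vessel wall. They are Kcnmb1 and Kcnma1, Cacna1c and Cacnb2, Kcnj8 and Abcc9, Kcnj15, Slc8a1, Atp2a2 and Pde3a. They were chosen by symbol, as the probe sets whose platform annotation gives exactly 1 of these names, with no threshold on their values. This found 31 of 45101 probe sets and 10 of 18194 gene symbols. The symbols were picked with earlier results of the same arrays in view, so the differences below describe the chosen genes, and their p-values support nothing about the choice.

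Whole aortas of 16 mice were each hybridised to an Affymetrix array of their own. All animals lacked apolipoprotein E (APOE-/-), came from The Jackson Laboratory, ate the high fat diet D12079B for 10 weeks from 8 weeks of age and were 18 weeks old. Mice without apolipoprotein E develop atherosclerosis on such a diet. The 4 groups of 4 mice were diabetic with RBX, diabetic, non-diabetic with RBX, and non-diabetic. Diabetes had been induced with the beta-cell toxin streptozotocin (STZ) at 6 weeks of age. RBX is the usual short name of ruboxistaurin, an inhibitor of protein kinase C beta. It was given over the same weeks as the diet, and no dose is stated in the labels. No group lacked the high fat diet or carried apolipoprotein E, so the non-diabetic mice are themselves an atherosclerosis model.

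In a vascular smooth muscle cell the membrane potential sets how much calcium enters. Opening of potassium channels hyperpolarises the membrane and closes L-type calcium channels, while calcium that has entered is returned to the store by a pump or expelled in exchange for sodium. Cyclic AMP relaxes the cell, and phosphodiesterases end that signal. Protein kinase C is known to inhibit several potassium channels of vascular muscle.

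All values are MAS5 signals on a linear scale, and each gene is read by its brightest probe set unless another is named. A signal is not comparable between genes, since each probe set binds with its own strength. Differences are in log2 units with their standard error from limma over all 16 arrays. Adjusted p-values are from that fit, by Benjamini-Hochberg over 11042 genes. A gene is said to have risen or fallen where this was under 0.05. All 10 genes passed the filter on low signal, and 6 of their 31 probe sets did not. In whole aorta, fewer cells of a type and less RNA per cell cannot be told apart.

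The 4 non-diabetic RBX arrays stood apart in 1 hybridisation control. The cre hybridisation control read 261860 to 294507 in the diabetic RBX mice, 207830 to 275438 in the diabetic mice, 308745 to 575618 in the non-diabetic RBX mice and 156465 to 249020 in the non-diabetic mice. The log2 3' to 5' ratio of Actb, a measure of RNA integrity, averaged 1.71 in the diabetic RBX mice, 1.34 in the diabetic mice, 2.08 in the non-diabetic RBX mice and 1.04 in the non-diabetic mice. In this ratio non-diabetic RBX mice 1 and 3, at 1.82 and 1.67, lay among the diabetic RBX mice. The Gapdh 3' to 5' ratio overlapped between the groups. Non-diabetic RBX mouse 4 had the highest cre signal and the highest Actb ratio of all arrays, and it was the lowest of all 16 arrays for 8 of the 10 genes. The share of all genes that were lowest on this array was not counted, so that count says nothing particular to the 10.

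Across the 4 groups the means of the 10 genes, by brightest probe set, were ordered as follows. By geometric mean, all 10 were lowest in the non-diabetic RBX mice, and 7 were highest in the non-diabetic mice. The exceptions were Pde3a, highest in the diabetic mice, and Kcnj8 and Slc8a1, whose diabetic RBX and diabetic means were nearly equal above both non-diabetic groups. For Kcnj8 the lowest place turns with the kind of mean, since its arithmetic mean was 4416 in the non-diabetic RBX mice and 4393 in the non-diabetic mice. Kcnmb1's other probe set was instead lowest in the diabetic RBX mice. How many of all genes have such an order was not counted, so nothing about the group is read from it. Over the 45 pairs of genes the correlation of log2 signal across the 16 arrays had a median of 0.65 and ran from -0.14 between Cacnb2 and Kcnj8 to 0.94 between Kcnmb1 and Atp2a2. These arrays share group differences and the control measures above, so the correlations are a description only.

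**Figure D1:**
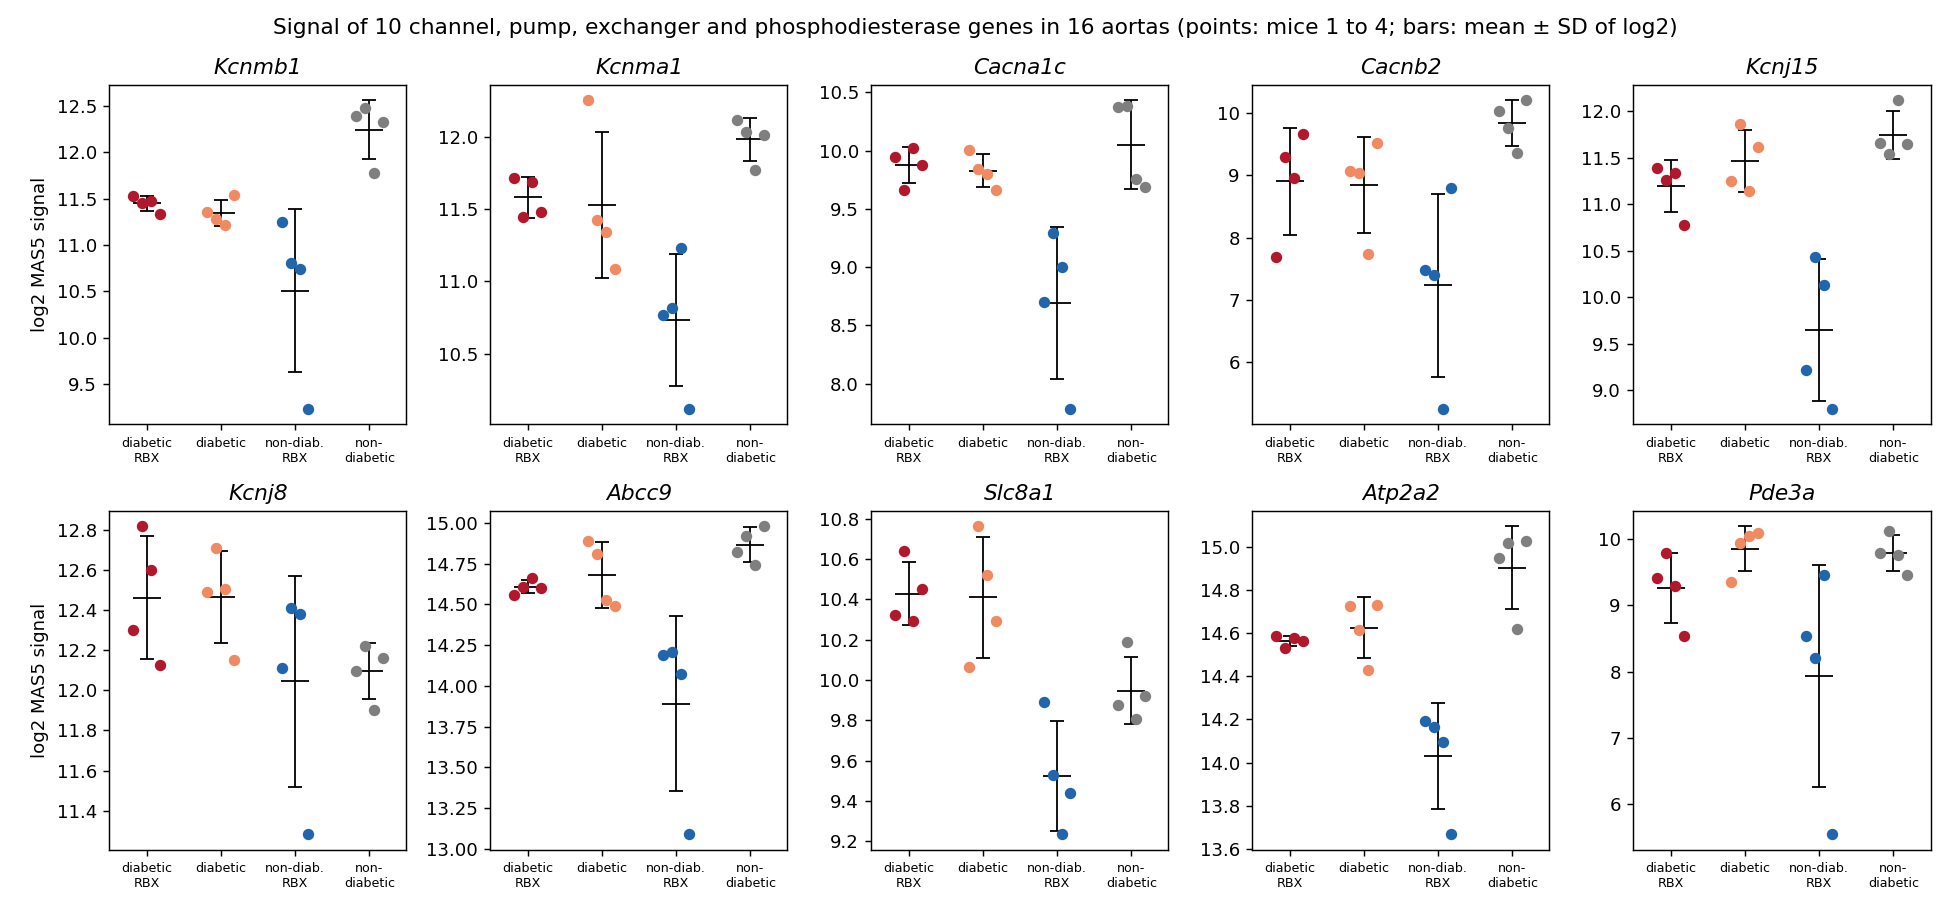
Log2 MAS5 signal of the brightest probe set of each of the 10 genes (vertical axis, a separate range per panel) in the diabetic RBX, diabetic, non-diabetic RBX and non-diabetic mice, 1 point per mouse, with bars for the mean and SD of log2. For 8 genes every non-diabetic RBX mouse lies below every non-diabetic mouse, and Kcnj8 and Slc8a1 overlap.

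The large-conductance potassium channel is opened by calcium and voltage. Kcnma1 encodes its pore, and Kcnmb1 encodes the smooth muscle beta subunit, which raises its calcium sensitivity. Kcnmb1 read 2966, 2799.9, 2839.6 and 2595 in diabetic RBX mice 1 to 4, and 2626, 2493, 2379 and 2984 in diabetic mice. It read 2428, 1795, 1715 and 603 in non-diabetic RBX mice, against 5383, 5710.0, 3517 and 5149 in non-diabetic mice. The means of both diabetic groups thus lay between those of the non-diabetic groups, and every one of their 8 mice read below every non-diabetic mouse. Kcnmb1 fell with RBX in non-diabetic mice, by 1.74 ± 0.28 (adjusted p = 0.000207), and the difference for RBX in diabetic mice was 0.10 ± 0.28 (adjusted p = 0.943). The difference for diabetes without RBX was -0.90 ± 0.28 (adjusted p = 0.133), which missed the threshold although the groups did not overlap. It passed at -1.01 (adjusted p = 0.00251) with array weights and at -0.90 (adjusted p = 0.0173) when the fit held only the 2 groups compared.

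Kcnma1 read 2788 to 3366 in the diabetic RBX mice, 2176 to 4873 in the diabetic mice, 1113 to 2401 in the non-diabetic RBX mice and 3483 to 4426 in the non-diabetic mice. The highest of all 16 readings, 4873, came from diabetic mouse 1, while the other 3 diabetic mice read 2176 to 2752. Kcnma1 fell with RBX in non-diabetic mice (-1.25 ± 0.22, adjusted p = 0.000388), and the non-diabetic mice lay above all non-diabetic RBX mice. The ratio of Kcnmb1 to Kcnma1 signal averaged, in log2, -0.13 ± 0.10 in the diabetic RBX mice, -0.18 ± 0.55 in the diabetic mice, -0.22 ± 0.59 in the non-diabetic RBX mice and 0.27 ± 0.18 in the non-diabetic mice (SD, n = 4 each). The spread within the diabetic and the non-diabetic RBX mice was wider than the distance between the group means.

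The L-type calcium channel lets calcium in when the membrane depolarises. Cacna1c encodes its pore, and Cacnb2 an auxiliary beta subunit that brings the pore to the membrane. Cacna1c read 812 to 1042 in diabetic RBX mice, 808 to 1030.1 in diabetic mice, 220.5 to 626 in non-diabetic RBX mice and 824 to 1339 in non-diabetic mice. The non-diabetic RBX mice lay below all other 12 mice, and the other 3 groups overlapped. Cacna1c fell with RBX in non-diabetic mice, by 1.36 ± 0.27 on the log2 scale (adjusted p = 0.000994), a signal of 0.390 times that of the non-diabetic mice. Its other probe set read 368 to 673 in non-diabetic RBX mice, below the non-diabetic mice but overlapping both diabetic groups. That probe set was at -0.71 for RBX in non-diabetic mice (adjusted p = 0.0914) and 0.22 for diabetes among RBX mice (0.703). The Cacna1c calls in these 2 comparisons therefore rest on 1 probe set.

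Cacnb2 and Pde3a had the largest standard errors of the 10 genes, at 0.59 and 0.55. Its signal was 207, 631, 495 and 812 in the diabetic RBX mice, and 538, 528, 212 and 733 in the diabetic mice. The non-diabetic RBX mice read 178, 168, 38.1 and 446, against 1046, 867, 659 and 1178 in the non-diabetic mice. Non-diabetic RBX mouse 4, the lowest array for most of the other genes, was the highest of its group here. Cacnb2 fell with RBX in non-diabetic mice (-2.61 ± 0.59, adjusted p = 0.00287), the largest difference of the 10, and its interval ran from -3.84 to -1.37. Without mouse 4 it was -3.13.

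The vascular ATP-sensitive potassium channel links the energy state of the cell to its membrane potential. Kcnj8 encodes its pore and Abcc9 its regulatory sulphonylurea receptor subunit, and both are also known from pericytes. The genes are neighbours on mouse chromosome 6. In GRCm38.p6, Kcnj8 lies at chr6:142564837-142571614 and Abcc9 at chr6:142587862-142702766, both on the minus strand, with 16247 bases between them. The 250 bases before a transcript start of the RefSeq promoter table (GRCm38.p6) are shown for these channel partners, with Kcnmb1 as a further potassium channel gene. For Abcc9 and Kcnmb1 that start lies inside the outermost bounds of the gene, so the Abcc9 window is within the gene's span and the Kcnmb1 window runs into it. Capitals mark CAGCTG, an E-box, and GGGCGG or its complement CCGCCC, a GC box.
Kcnj8, chr6:142571615-142571864, minus strand: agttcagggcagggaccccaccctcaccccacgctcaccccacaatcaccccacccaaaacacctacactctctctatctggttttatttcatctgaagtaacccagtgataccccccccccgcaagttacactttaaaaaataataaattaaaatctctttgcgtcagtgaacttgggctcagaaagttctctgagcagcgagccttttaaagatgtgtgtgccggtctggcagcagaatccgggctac
Abcc9, chr6:142702275-142702524, minus strand: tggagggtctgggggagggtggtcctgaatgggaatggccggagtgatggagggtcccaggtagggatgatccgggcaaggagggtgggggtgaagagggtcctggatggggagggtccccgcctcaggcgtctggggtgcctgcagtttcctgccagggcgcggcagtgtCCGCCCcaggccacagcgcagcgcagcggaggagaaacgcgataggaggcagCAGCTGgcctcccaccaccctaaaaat
Kcnmb1, chr11:33962763-33963012, plus strand: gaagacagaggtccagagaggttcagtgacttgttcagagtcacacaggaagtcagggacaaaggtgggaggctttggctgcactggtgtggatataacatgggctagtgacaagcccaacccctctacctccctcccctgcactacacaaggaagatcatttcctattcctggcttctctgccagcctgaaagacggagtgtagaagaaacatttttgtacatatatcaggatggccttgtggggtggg
The Abcc9 window held 1 E-box, 27 bases before the start, and 1 GC box, 79 bases before it, while neither was found in the windows of Kcnj8 and Kcnmb1. RefSeq windows were found for 8 of the 10 genes, 11 windows in all. Searched on both strands, the E-box was in 3 of these 11 windows, of Abcc9 and Cacnb2, against 13% of all 32851 windows. The GC box was in 4, of Abcc9, Cacna1c, Cacnb2 and Kcnma1, against 32.7%. The CArG box, the site of serum response factor, and the MEF2 site were in 0 of the 11, against 1.47% and 2.92%. TATAAA was in 0 as well, against 12.4%. A match is a run of letters only, and its absence from these windows says nothing about a factor.

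Kcnj8 read 5045, 7217, 6208 and 4474 in the diabetic RBX mice, and 5739, 6682, 5801 and 4554 in the diabetic mice. Kcnj8 read 4421, 5431, 5320.1 and 2490.5 in the non-diabetic RBX mice, against 4384, 4776, 3831 and 4582 in the non-diabetic mice. All 4 groups overlapped, with mouse 4 of the non-diabetic RBX group alone far below the rest. The difference for RBX in non-diabetic mice was -0.05 ± 0.20 (adjusted p = 0.870), with an interval of -0.48 to 0.38, and it was 0.20 without that mouse. Kcnj8 was the gene of the 10 with the smallest difference in this comparison. It has 1 probe set on the array, so no other reading stands beside these values.

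Abcc9 read 24157, 24973, 25920.5 and 24882 in the diabetic RBX mice, and 30389, 28673, 23552 and 23043 in the diabetic mice. In the non-diabetic RBX mice it read 18692, 18882, 17260.4 and 8716, against 28993, 31000.4, 27331 and 32308 in the non-diabetic mice. The non-diabetic RBX mice lay below all other 12 mice. Abcc9 fell with RBX in non-diabetic mice, by 0.98 ± 0.18 on the log2 scale (adjusted p = 0.000563), and the difference was -0.71 (adjusted p = 9.87e-05) without mouse 4. The log2 ratio of Abcc9 to Kcnj8 signal was 2.26, 1.79, 2.06 and 2.48 in the diabetic RBX mice and 2.40, 2.10, 2.02 and 2.34 in the diabetic mice. It was 2.08, 1.80, 1.70 and 1.81 in the non-diabetic RBX mice, against 2.73, 2.70, 2.83 and 2.82 in the non-diabetic mice. In this ratio, looked at after the values were seen and not tested, mouse 4 sat with its group, and the 4 non-diabetic mice were above all other 12.

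Kcnj15 encodes an inwardly rectifying potassium channel. Its signal was 2685, 2461, 2587 and 1759 in the diabetic RBX mice, and 2440.1, 3743, 2264 and 3144 in the diabetic mice. Kcnj15 read 596, 1385, 1124 and 446 in the non-diabetic RBX mice, against 3236, 2991, 4451 and 3218 in the non-diabetic mice. The highest non-diabetic RBX reading was below the lowest of every other group. Kcnj15 fell with RBX in non-diabetic mice (-2.10 ± 0.28, adjusted p = 3.54e-05), to 0.234 times the non-diabetic signal, the smallest adjusted p of the 10. It rose with diabetes among RBX mice, by 1.55 ± 0.28 (adjusted p = 0.00285), in the same 4 non-diabetic RBX arrays.

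Atp2a2 encodes the pump that returns calcium to the sarcoplasmic reticulum. It read 24569, 23641, 24436 and 24183 in the diabetic RBX mice, and 27106, 25085, 22078 and 27214 in the diabetic mice. Atp2a2 read 18754, 18390.2, 17528 and 13011 in the non-diabetic RBX mice, against 31616, 33181, 25163 and 33394 in the non-diabetic mice. The non-diabetic RBX mice were below all other 12, and the diabetic RBX mice agreed among themselves within 409.8 (SD). Atp2a2 fell with RBX in non-diabetic mice, by 0.87 ± 0.12 on the log2 scale (adjusted p = 3.92e-05). The difference for diabetes without RBX was -0.28 ± 0.12 (adjusted p = 0.260) and passed at -0.35 (adjusted p = 0.0179) with array weights.

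Slc8a1 encodes the sodium-calcium exchanger, which expels calcium from the cell. It read 1283, 1594, 1255 and 1401 in the diabetic RBX mice, and 1069.5, 1739, 1472 and 1255 in the diabetic mice. The non-diabetic RBX mice read 949, 739, 602 and 695, against 940.1, 1167, 894 and 968 in the non-diabetic mice. Both diabetic groups had the higher means, with the diabetic RBX mice above all 8 non-diabetic mice. Slc8a1 rose with diabetes among RBX mice (0.90 ± 0.18, adjusted p = 0.00533), and the difference for diabetes without RBX was 0.46 ± 0.18 (adjusted p = 0.217). Averaged over both RBX levels it rose by 0.68 ± 0.13 (adjusted p = 0.0441), the only one of the 10 to pass in that average, where 0.0725% of all genes rose. That call was near the threshold and held in 7 of 28 alternatives, with a difference of 0.62 to 0.74 in all of them. It was lost on leaving out any 1 of the 16 arrays other than diabetic mouse 1 and non-diabetic RBX mouse 1, with adjusted p of 0.0514 to 0.156. The difference for RBX in non-diabetic mice was -0.42 ± 0.18 (adjusted p = 0.0775). It passed at -0.52 (adjusted p = 0.0389) with quantile normalization, at -1.03 (adjusted p = 0.00673) with the mean of the gene's probe sets and at -0.55 (adjusted p = 0.0296) without non-diabetic RBX mouse 1.

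Pde3a encodes a phosphodiesterase that breaks down cyclic AMP and is inhibited by cyclic GMP. It is known in vascular smooth muscle and in platelets. Its signal was 681, 890.5, 627 and 371 in the diabetic RBX mice, and 653, 986, 1054 and 1087 in the diabetic mice. Pde3a read 370.2, 296, 701 and 46.5 in the non-diabetic RBX mice, against 889, 1118, 870.5 and 707 in the non-diabetic mice. Mouse 4 of the non-diabetic RBX group, at 46.5, was far below all other arrays, and mouse 3 of that group reached 701. Pde3a fell with RBX in non-diabetic mice (-1.86 ± 0.55, adjusted p = 0.0157), and without mouse 4 the difference was -1.06 (adjusted p = 0.0210). It did not pass when the fit held only the 2 groups compared (adjusted p = 0.0615).

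Read together for RBX in non-diabetic mice, 8 of the 10 genes fell and 0 rose, where 15.1% of all 11042 genes fell and 16.5% rose. The median difference was -1.30, against 0.03 over all genes. For 8 genes the 4 non-diabetic RBX mice were all below the 4 non-diabetic mice, as was so for 13.2% of all genes. Without non-diabetic RBX mouse 4 all 8 passed again, with Kcnmb1 at -1.31, Kcnma1 at -1.04, Cacna1c at -1.05, Kcnj15 at -1.81 and Atp2a2 at -0.75. Because the genes were named with this contrast in view, nothing about the group is read from these shares. In the diabetic mice RBX changed 0 of the 10 by this test, where 0.0453% of all genes passed, and 0 had an unadjusted p under 0.05, against 1014 of all genes. Differences there ran from -0.60 for Pde3a to 0.10 for Kcnmb1, and the smallest adjusted p was 0.784. With 4 mice a group, the 95% intervals still allowed changes of -0.31 to 0.18 for Atp2a2 and of -1.18 to 1.30 for Cacnb2.

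Diabetes without RBX changed 0 of the 10 by the same test, where 0.652% of all genes passed, and 3 genes, Kcnmb1, Slc8a1 and Atp2a2, had an unadjusted p under 0.05, against 1682 of all genes. The median difference was -0.25, against 0.01 over all genes. By brightest probe set, Kcnmb1 was the one gene whose diabetic mice all read below the non-diabetic mice, as 4.89% of all genes did. In another Kcnma1 probe set the diabetic mice, at 291 to 657, were also below the non-diabetic mice, at 737 to 1101 (-0.90, adjusted p = 0.181). Atp2a2's other kept probe sets were at -0.46, -0.53, -0.71 and -0.23 (smallest adjusted p = 0.0780). Of 15 other kept probe sets 12 had the sign of the brightest and 0 passed, where 0.497% of all probe sets passed. Among RBX mice 6 of the 10 rose with diabetes, namely Kcnma1, Cacna1c, Kcnj15, Abcc9, Slc8a1 and Atp2a2, where 4.44% of all genes rose. For these 6 and Kcnmb1 the diabetic RBX mice lay above all non-diabetic RBX mice, as was so for 6.27% of all genes. Without non-diabetic RBX mouse 4, Kcnma1 came to an adjusted p of 0.0785 and Cacnb2 to 0.0314. Kcnma1 and Abcc9 also missed the threshold without diabetic RBX mouse 1 (adjusted p = 0.0756 and 0.0504) or mouse 3 (0.0719 and 0.0612). Kcnmb1, at an adjusted p of 0.0521, passed without non-diabetic RBX mouse 1 (0.0139) or mouse 3 (0.0499), and Pde3a without mouse 3 (0.0352). This comparison uses the same 4 non-diabetic RBX arrays as the comparison for RBX in non-diabetic mice, so the values stand side by side and are no second support.

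**Figure D2:**
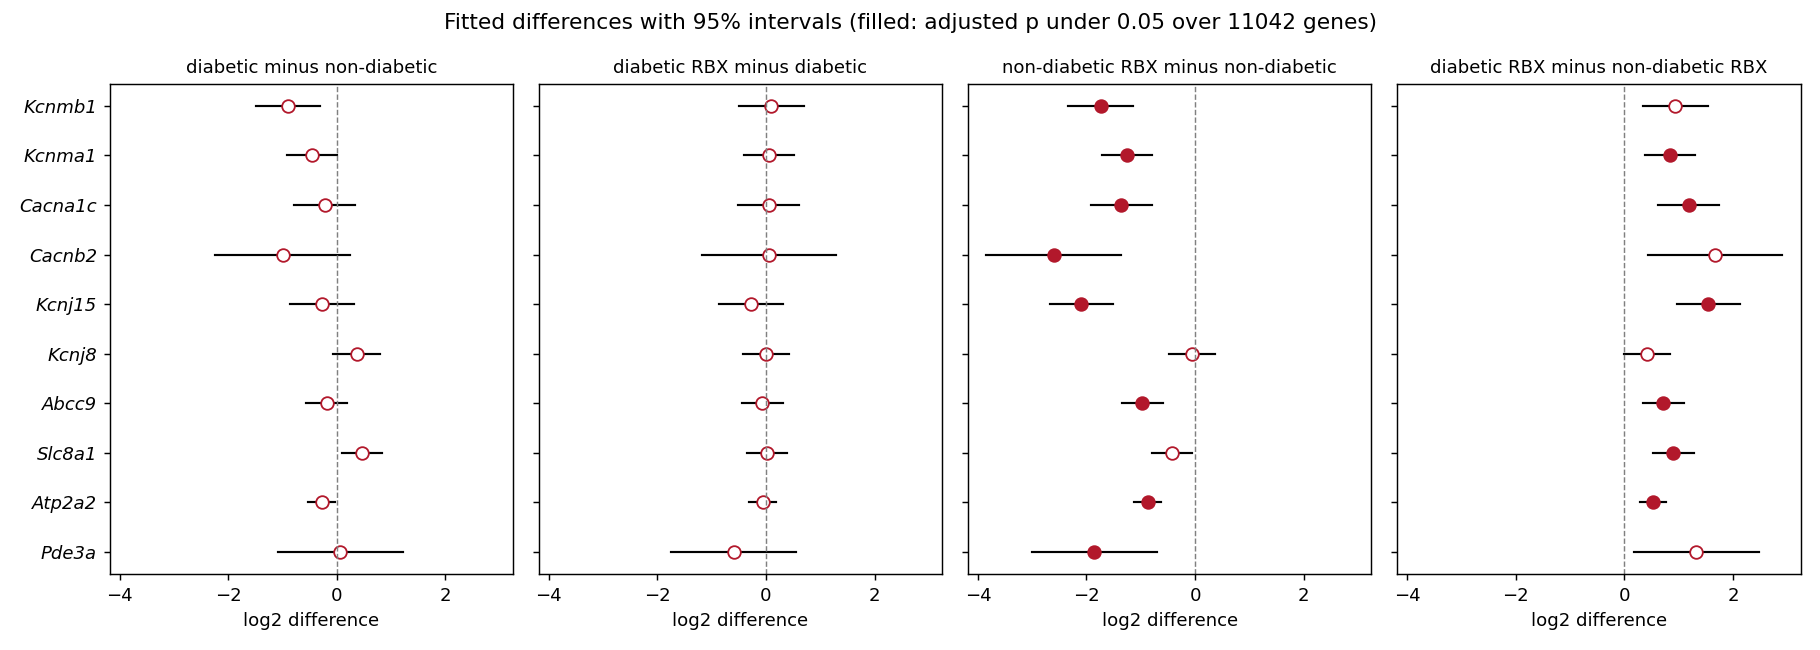
Fitted log2 differences of the 10 genes with 95% intervals in the 4 comparisons of pairs of groups, each named above its panel, with filled points for an adjusted p under 0.05 over 11042 genes. Differences for RBX in diabetic mice lie between -0.60 and 0.10, while those for RBX in non-diabetic mice reach -2.61.

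The RBX effect under diabetes less the RBX effect without diabetes was tested as an interaction. It was above 0 for all 10 genes and passed the threshold for 7 of them, where 6.02% of all genes rose. The difference of effects was 1.84 ± 0.40 (adjusted p = 0.00715) for Kcnmb1 and 1.30 ± 0.31 (adjusted p = 0.0121) for Kcnma1. It was 1.41 ± 0.38 (adjusted p = 0.0224) for Cacna1c and 2.67 ± 0.83 (adjusted p = 0.0455) for Cacnb2. It was 1.82 ± 0.39 (adjusted p = 0.00662) for Kcnj15, 0.91 ± 0.25 (adjusted p = 0.0274) for Abcc9 and 0.81 ± 0.17 (adjusted p = 0.00453) for Atp2a2. Kcnj8 at 0.05 (adjusted p = 0.927), Slc8a1 at 0.44 (0.270) and Pde3a at 1.26 (0.307) did not pass. Of the 15 other probe sets that passed the filter on low signal, 14 had the same sign and 7 rose, where 5.40% of all probe sets rose. Kcnmb1's other probe set was at -0.09 ± 0.37 (adjusted p = 0.906) and Cacna1c's at 0.80 ± 0.45 (0.258). Kcnj15's others were at 1.37 (0.0633) and 0.46 (0.657), so for these genes the call rests on 1 probe set. Cacnb2's call rests on 1 as well, since its other probe set, below the filter, was at 1.33 ± 1.29 (limma, unadjusted p = 0.312). With probe sets tested apart, the brightest of Cacnb2 just missed the threshold (adjusted p = 0.05004). Without non-diabetic mouse 2 the count was 4, as Cacna1c came to an adjusted p of 0.0534, Cacnb2 to 0.0744 and Abcc9 to 0.0532. Cacnb2 missed the threshold on leaving out any 1 of 10 arrays (adjusted p = 0.0535 to 0.104), Abcc9 with any 1 of 5 (0.0532 to 0.0619) and Cacna1c with non-diabetic mouse 1 or 2 (0.0532 and 0.0534). An average of RBX over both diabetes states mixes unequal differences. In diabetic mice the median of the 10 was 0.01, with 5 above 0, 5 below and 0 called, and in non-diabetic mice it was -1.30. The average therefore does not describe the diabetic mice. Averaged over diabetes, 8 of the 10 fell with RBX, where 10.5% of all genes fell. Of these, Cacnb2 missed the threshold there without any 1 of 9 arrays (adjusted p = 0.0505 to 0.0767) and Pde3a without any 1 of 7 (0.0512 to 0.0707). In this average 14 of the 15 other probe sets had the same sign as the brightest and 6 fell, where 9.91% of all probe sets fell. The exception was the second brightest of Kcnma1, at 0.48 ± 0.21 (limma, unadjusted p = 0.0361, adjusted p = 0.115). Kcnma1's further probe sets were at -0.05, -0.07 and -0.63, and did not pass.

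Of 3 array measures, cre and the Actb ratio moved with the same contrast and the Gapdh ratio less so. In log2, cre was 18.68 in the non-diabetic RBX mice and 17.49 in the non-diabetic mice, and the Actb ratio averaged 2.08 and 1.04 in these groups. Exact two-sided permutation tests gave p = 0.0286 for both, the smallest p that 4 against 4 allows, and 0.114 after adjustment over 12 tests. The Gapdh ratio averaged 0.31 in the non-diabetic RBX mice and 0.13 in the non-diabetic mice (exact permutation p = 0.2, adjusted p = 0.24). With log2 cre in the fit, 0 of the 10 genes passed for RBX in non-diabetic mice. Their median difference was then -0.23, with 8 below 0, and the median standard error was 0.43, against 0.24 without cre. Kcnj15 was at -2.12 and Cacnb2 at -2.67, while Kcnmb1 came to 0.05. Kcnma1 was at -0.70, Cacna1c at -0.29, Abcc9 at -0.22, Atp2a2 at -0.24 and Pde3a at -0.14. With the Actb ratio in the fit 1 passed, Cacnb2 at -4.96 (adjusted p = 0.0304), Kcnj15 was at -1.95 and Pde3a turned to 0.65. Kcnmb1 was then at -0.37, Kcnma1 at -0.68, Cacna1c at -0.67, Abcc9 at -0.47 and Atp2a2 at -0.46. Since these groups overlap neither in cre nor in the Actb ratio, the part of either measure and that of RBX cannot be told apart here.

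**Figure D3:**
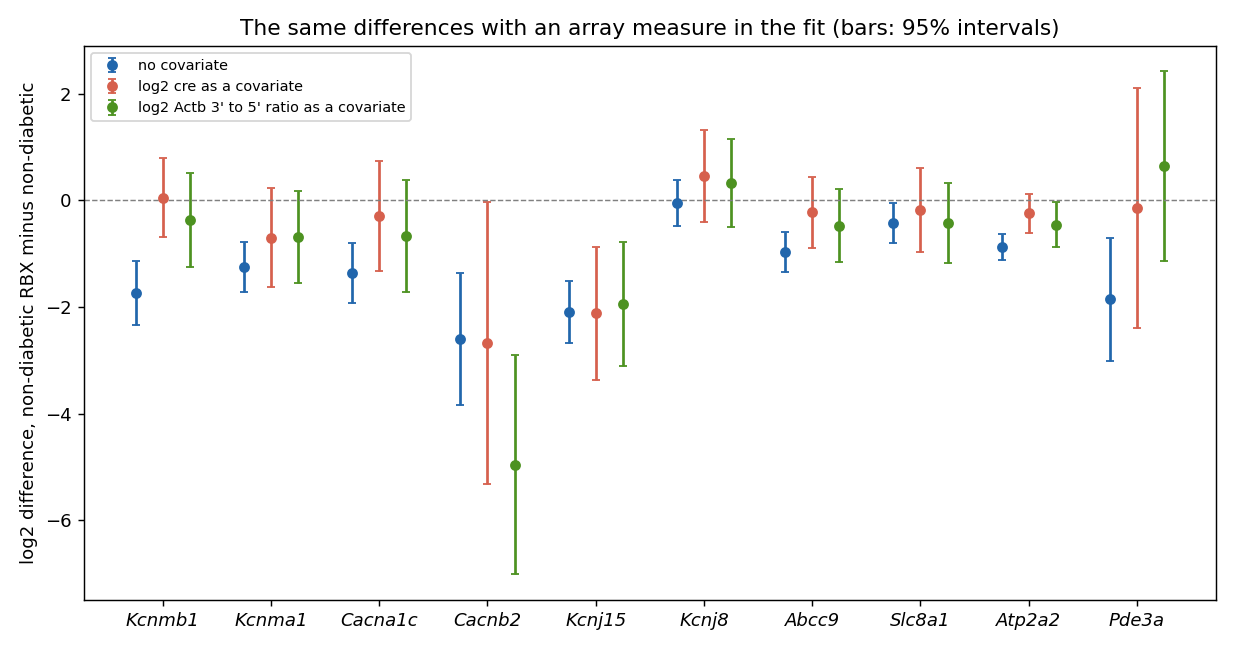
Log2 difference of each of the 10 genes between non-diabetic RBX and non-diabetic mice, with 95% intervals, from the fit with no covariate (blue), with log2 cre (red) and with the log2 Actb 3' to 5' ratio (green). The median of the 10 is -1.30, -0.23 and -0.46 in this order, and the intervals widen with a covariate.

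Most genes had further probe sets, which bind other parts of the transcript. In all, 15 other probe sets passed the filter on low signal. For RBX in non-diabetic mice 15 of 15 had the same sign as the brightest, and 8 fell, where 14.8% of 19115 probe sets tested apart fell. Atp2a2's 4 others were at -0.87, -1.28, -1.32 and -0.46, and Abcc9's were at -1.0 and -0.59. For diabetes among RBX mice 14 of 15 had the same sign and 7 rose, where 4.39% of all probe sets rose.

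Kcnmb1's other probe set was the exception to that. It averaged 622 ± 171 in diabetic RBX mice, 792 ± 142 in diabetic mice, 879 ± 176 in non-diabetic RBX mice and 1099 ± 361 in non-diabetic mice (SD, n = 4 each). Its difference was -0.28 ± 0.26 for RBX in non-diabetic mice and -0.52 ± 0.26 for diabetes among RBX mice, neither past the threshold. The fall of Kcnmb1 to 0.300 times the non-diabetic signal therefore rests on 1 of its probe sets, as does its interaction given above.

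For RBX in diabetic mice, 3 of the 4 other Kcnma1 probe sets had an unadjusted p under 0.05, and 0 passed after adjustment. The second brightest of its 5 probe sets averaged 1356 ± 496 in diabetic RBX mice and 497 ± 154 in diabetic mice (SD, n = 4 each), a difference of 1.43 ± 0.30. Every diabetic RBX mouse, at 755 to 1971, was above every diabetic mouse, at 276 to 627. Its unadjusted p was 0.000121 and its adjusted p over the probe sets kept was 0.0894 (limma), so it did not pass. The other three were at 0.92 (unadjusted p = 0.00829, adjusted p = 0.323), 0.73 (unadjusted p = 0.0498, adjusted p = 0.492) and -0.08. In the first of these, too, every diabetic RBX mouse, at 717 to 1131, was above every diabetic mouse, at 291 to 657. The brightest probe set of Kcnma1 was at 0.05 in this comparison. Slc8a1's other kept probe set fell with RBX in non-diabetic mice (-1.65 ± 0.46, adjusted p = 0.0140), where the brightest had missed the threshold. It read 620.1 to 1123 in the diabetic RBX mice, 734 to 891 in the diabetic mice, 68.4 to 688 in the non-diabetic RBX mice and 707 to 1210.2 in the non-diabetic mice. Its difference for diabetes without RBX was -0.22 ± 0.46, so the higher Slc8a1 mean in diabetic than in non-diabetic mice without RBX rests on 1 of its probe sets. Pde3a's 2 other probe sets, both below the filter, were at 0.64 ± 0.40 and 1.76 ± 0.93, opposite in sign to the brightest, and did not pass.

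**Figure D4:**
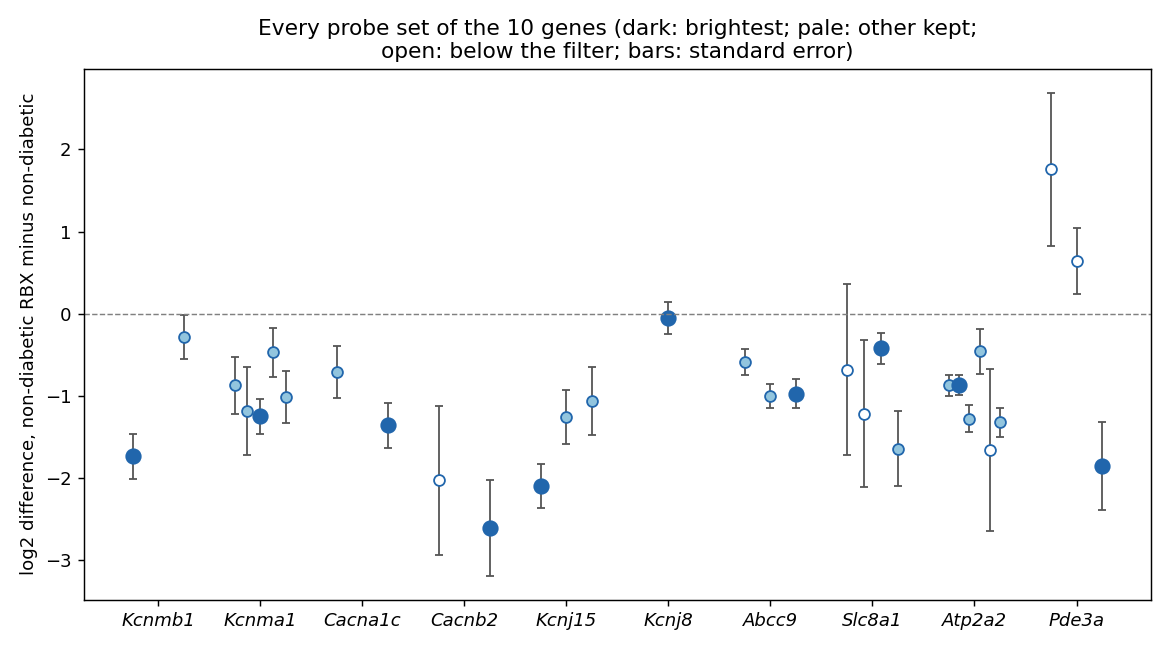
Log2 difference between non-diabetic RBX and non-diabetic mice for each of the 31 probe sets of the 10 genes, with bars for the standard error; dark points are the brightest probe set of a gene, pale points the 15 others that passed the filter and open points the 6 that did not. Only Pde3a has probe sets above 0, both of them open points.

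The smooth muscle, endothelial, macrophage and adventitial markers of whole aorta were all measured. For RBX in non-diabetic mice, 10 of 14 contractile smooth muscle markers fell and 2 rose, with a median of -1.02. The 2 that rose were the bright markers Acta2 and Tpm2. Acta2 averaged 205054 in the non-diabetic RBX mice and 165904 in the non-diabetic mice, and Tpm2 124331 and 97789. The summed signal of the 14 was 549479 to 786348 in the non-diabetic RBX mice, against 806232 to 876785 in the non-diabetic mice. Of 5 pericyte markers tested, 2 fell, and their sum was 39955 to 58411, against 78456 to 135453 in the non-diabetic mice. In the other direction, 9 of 10 endothelial markers (median 0.81), 7 of 10 macrophage markers (0.75) and 4 of 9 adventitial fibroblast markers (0.34) rose. So did 3 of 4 platelet and blood markers (1.24) and 2 of 8 brown adipocyte markers (1.38). The endothelial sum was 68421 to 99046, against 43482 to 51805 in the non-diabetic mice. Of 5 white adipocyte markers 1 rose and 1 fell, of 4 nerve and Schwann cell markers 1 rose, and the 1 skeletal muscle marker tested did not pass. The brown adipocyte sum was 29021 to 133080 in the non-diabetic RBX mice, against 22407 to 36498 in the non-diabetic mice. The part of this shift in the fall of the 10 genes was not tested. In the diabetic mice RBX changed 0 of the 14 contractile markers, with a median of 0.21.

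Atp2a2, Slc8a1 and Cacna1c are also strongly expressed in heart muscle, which can adhere to a dissected aorta. Of 12 cardiac markers 3 passed the filter on low signal and 0 were called for RBX in non-diabetic mice. The heart muscle markers Myh6, Myl7, Myl2, Tnni3 and Nppa were below the filter on low signal. The sum of the 3 that passed, Myl4, Tnnt2 and Actc1, was 4027 to 9631 in the diabetic RBX mice, 2643 to 3601 in the diabetic mice, 2454 to 5327 in the non-diabetic RBX mice and 2891 to 5105 in the non-diabetic mice.

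Other genes of the same pathways were counted from 4 lists. These lists were drawn up with earlier results of the same data known, so nothing about the pathways is read from the shares below. Of 98 listed genes 58 were tested, and for RBX in non-diabetic mice 20 rose and 16 fell, 62.1% in all, where 31.6% of all genes passed, with a median of 0.20. The listed genes thus moved both ways. Among 9 other potassium channel genes 4 rose and 3 fell. The beta subunit Kcnab1 fell by 1.81 (adjusted p = 1.29e-05), the pores Kcnd3 and Kcnq5 fell by 1.04 and 1.67, and Kcnj11, the other pore of ATP-sensitive channels, rose by 0.62 (adjusted p = 0.00180).

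Among 13 other genes of calcium and cation entry 5 rose and 3 fell. Cacna2d1, a further auxiliary subunit of the L-type channel, fell by 1.71 (adjusted p = 9.24e-06), as did the cation channel Trpc1 by 0.92. The cation channel Trpm4 rose by 0.73 and the store-operated channel Orai1 by 0.51. Of 11 other genes of calcium stores and extrusion 3 rose and 2 fell. The store's inositol trisphosphate receptor Itpr2 rose by 1.47 (adjusted p = 2.55e-06), and its ryanodine receptor Ryr2 fell by 1.93 (adjusted p = 0.00104). The pump Atp2a3 rose by 0.54, where its relative Atp2a2 had fallen, and the exchanger Slc24a3 fell by 0.60.

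Of 25 other cyclic nucleotide genes 8 rose and 8 fell. The falls included both subunits of soluble guanylate cyclase, the nitric oxide receptor, with Gucy1b1 at -1.71 and Gucy1a1 at -1.48. Prkar1a, a regulatory subunit of protein kinase A, fell by 0.91 (adjusted p = 7.42e-06), and Adcy5, an adenylate cyclase, fell by 1.48. In diabetic mice RBX changed 0 of the 58. Diabetes without RBX changed 3 of them, or 5.17%, where 0.652% of all genes passed: Itpr2 rose by 0.71 (adjusted p = 0.0203), and Adcy5 and Gucy1a1 fell by 0.96 and 0.83 (adjusted p = 0.0424 and 0.0447). With diabetes among RBX mice 8 rose and 2 fell, with Kcnab1 at 1.11, Cacna2d1 at 0.99, Gucy1b1 at 1.07 and Itpr2 at -0.59.

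**Figure D5:**
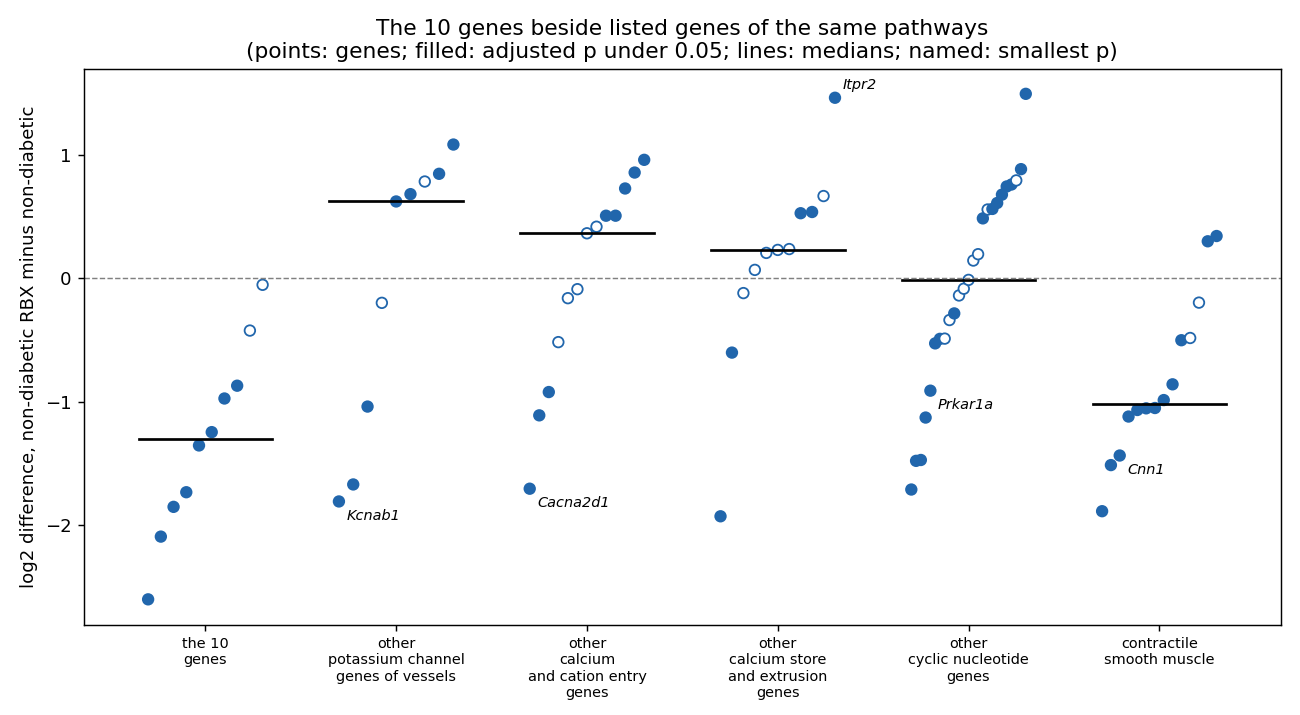
Log2 difference between non-diabetic RBX and non-diabetic mice for the 10 genes, for tested genes of 4 pathway lists and for the contractile smooth muscle markers, 1 point per gene, filled for an adjusted p under 0.05, with a line at each median and a name at the smallest p. The medians are -1.30 for the 10 genes and -1.02 for the contractile markers, while the pathway lists hold filled points on both sides of 0.

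Genes most like 3 of the members were named by Pearson's r of log2 signal over the 16 arrays, with r again after taking out the group means. Most like Kcnmb1 were Efhd1 (0.98, within groups 0.95), Itih2 (0.97, 0.93), Rtl8c (0.96, 0.92) and Myh10 (0.96, 0.87). Itih2 was also among the 4 genes most like Atp2a2, at 0.97. Most like Pde3a were Bdnf (0.95, 0.91), Slc16a7 (0.92, 0.86), Plp2 (0.91, 0.85) and Elp4 (0.91, 0.86). Most like Kcnj8 were Tnfrsf1a (0.86, 0.82), Tipin (0.84, 0.85), Zfp655 (0.83, 0.80) and Ugdh (0.83, 0.87). The arrays share the control measures given above, and such likeness is a description of these arrays only.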

How the data were processed

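Whole-aorta RNA of 16 mice was hybridised to Affymetrix arrays, with 4 arrays in each of 4 groups taken from the sample titles. The deposited values are linear MAS5 intensity signals, per the submitters' processing notes (version not given). From the values, each array's mean, with 2% trimmed at each end, was 1500.01. Array medians ran from 380.9 to 532.3, and the number of arrays limits precision. The platform annotation gave 1 symbol to 34958 of 45101 probe sets, several to 932 and none to 9211.

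Each gene was read by its brightest probe set with a mean log2 signal above the median of all probe sets (381.5 on the linear scale). This left 11042 genes. Signals were log2-transformed with no value added and fitted with limma 3.58.1 (R 4.3.3) over all 16 arrays, with 1 mean per group, an intensity trend and 12 residual degrees of freedom, and p-values were adjusted by Benjamini-Hochberg. The fit was tested on simulated data. The contrasts were RBX within each diabetes state, diabetes within each RBX state, their interaction and both averages. Each array is 1 mouse. Tried besides were 30.5 added to all signals, each array scaled to its 75th percentile, quantile normalization, other filters, other summaries of probe sets, other variance models, array weights, cre or Actb as a covariate, a replicate block and leaving out each array.

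The 10 genes, the marker lists and the pathway lists were chosen with earlier results of these data known. Named genes were the 10 members, the 4 pathway genes of smallest p per list and the 4 genes of highest correlation for Kcnmb1, Pde3a and Kcnj8. Promoter windows came from RefSeq (GRCm38.p6).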

Additional observations from a re-analysis of the deposited data

Results flagged for a closer look

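Abcc9 in the non-diabetic RBX mice had 1 signal far from the others: mouse 4 read 8715.7, the lowest of its group of 4. Dixon's test was run on 40 groups, and chance alone flags about 1 in 20. The same array had the highest cre control signal and the highest Actb 3' to 5' ratio of the 16, and the part of these measures in the low signal was not tested.

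By limma's interaction test, the difference for RBX was unequal in diabetic and in non-diabetic mice for 7 genes. The effect in diabetic less that in non-diabetic mice was 1.84 for Kcnmb1, 1.30 for Kcnma1, 1.41 for Cacna1c, 2.67 for Cacnb2, 1.82 for Kcnj15, 0.91 for Abcc9 and 0.81 for Atp2a2. With log2 cre in the fit 0 of these passed, and with the Actb ratio 1 did. For Kcnmb1, Cacna1c, Cacnb2 and Kcnj15 the interaction call rests on 1 probe set, as given above.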

How the results depend on the processing

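Counts of called genes among the 10 moved as follows. For RBX in non-diabetic mice (8), the count was 5 with the filter at the 70th percentile, which kept 6 of the 10 genes, 7 with only the groups compared, 9 with quantile normalization or the mean of the probe sets, 0 with log2 cre and 1 with the Actb ratio as a covariate. For diabetes among RBX mice (6), it was 0 with cre, 3 with Actb, 4 with only the groups compared and 5 with the mean of the probe sets or the stricter filter. For the interaction (7), it was 4 with the mean of the probe sets, 5 with no intensity trend or the stricter filter, 6 with no filter or separately tested probe sets, 0 with cre and 1 with Actb. For diabetes without RBX (0), it was 3 with array weights and 1 with only the groups compared. The RBX average (8) gave 5 with the stricter filter, 7 with no filter, no intensity trend or the mean of the probe sets and 0 with either covariate. The diabetes average (1) gave 0 with no filter, the stricter filter, robust variance, no intensity trend, averaged or separately tested probe sets, cre and Actb. Leaving out each array gave 8 to 9 for RBX in non-diabetic mice, 4 to 8 for diabetes among RBX mice, 4 to 7 for the interaction, 6 to 8 for the RBX average and 0 to 1 for the diabetes average. It gave 0 to 0 for diabetes without RBX and for RBX in diabetic mice.

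With cre, Kcnmb1 turned to 0.051 for RBX in non-diabetic mice and to 0.24 in the RBX average. With Actb, Pde3a turned to 0.65 and 0.47 in these, and Kcnmb1 to 0.10 in the average. The cause was not tested. Over all alternatives, 122 calls were lost, 15 gained and 634 held in the same direction. For 5 more, the values just named, the sign turned and the call was lost, so none was called in the opposite direction. A further 946 values were called in neither fit, and 61 of them changed sign.

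Counts over all genes also moved. RBX in non-diabetic mice called 3494, against 0 to 174 with a covariate and 2661 to 5351 otherwise. Diabetes without RBX called 72, against 4 to 21 with a covariate, 1 to 334 without 1 array and 27 to 1207 otherwise. RBX in diabetic mice called 5, against 1 to 36 in all. Diabetes among RBX mice called 784, against 48 to 289 with a covariate and 387 to 916 otherwise, and 1253 of the probe sets tested apart. The interaction called 1272, against 0 to 341 with a covariate and 771 to 1776 otherwise, and 1805 of the probe sets tested apart. The RBX average called 2199, against 0 to 12 with a covariate. No filter moved the median of all genes for RBX in non-diabetic mice to 0.16.

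Replicate numbers did not pair the mice: over 24 pairs of equal number, deviations correlated at -0.14 to 0.18, and 2 were above 0.1. With a replicate block the count for diabetes among RBX mice was 8, against 6, with Kcnmb1 and Cacnb2 added. The block changed no other count among the 10, and diabetes without RBX then called 170 of all genes.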
